A study of Mus musculus with 12 samples.

Results

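Fatty acid oxidation and PPAR alpha genes were examined in the kidneys of mice given colistin, a polymyxin antibiotic known to injure the kidney. The set holds 34 named genes, taken by matching the symbol of each array probe, without regard to case. It covered 58 of the 45281 probes on the array. A probe was kept when at least 4 of the 12 arrays detected it, that is, when its signal exceeded the negative control beads with a detection p below 0.01. That left 47 of 16179 kept probes and 29 of the 34 genes, of 11343 genes with a kept probe. The 12 mice were male C57BL/6 animals, 10 weeks old. The control group was 6 mice given 0.1% saline, 2 times a day, and the treated group was 6 mice given a daily colistin dose of 16 mg/kg, split into 2. Exposure lasted 72 hours. Total kidney RNA was hybridised to Illumina MouseWG-6 v2 BeadChips, on which each probe is read by many beads as 1 brightness value. The comparison asks which of these transcripts differ between the groups.

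Fatty acids are the main fuel of the proximal tubule, the most energy-demanding segment of the nephron. They are bound and activated to acyl-CoA in the cytosol, carried into mitochondria as carnitine esters and shortened there in repeated cycles of dehydrogenation, hydration, a second dehydrogenation and thiolysis. Very long and branched chains start in peroxisomes. PPAR alpha, a nuclear receptor encoded by Ppara, binds fatty acids, pairs with the retinoid X receptor and raises transcription of many of these enzymes, above all during fasting.

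The arrays detected between 14661 and 16154 probes each. Of 16 marker genes of the proximal tubule, the segment that makes up much of the kidney cortex, 16 had a kept probe. The groups were spread over 2 BeadChips with 3 mice of each on each. Saline and colistin mice held alternate positions along both, so position and treatment cannot be told apart. On the array of saline mouse 5 the raw signal reached only 475 at its 95th percentile, where all others reached at least 752, and saline mouse 2 held the lowest value of all 12 mice at 28.3% of all kept probes and the highest at 25.2%. Values that rest on saline mice 2 and 5 are therefore also given without them. Saline mouse 1 held the lowest value at 13.5% of all kept probes and the highest at 14.5%. Those shares exceed the 12.0% and 11.1% of saline mouse 5. Saline mouse 1 was left out only on its own. Because the RNA was from bulk tissue, fewer cells of a type and less RNA per cell cannot be told apart.

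Of the 5 genes that were not measured, Hadha, the alpha subunit of the mitochondrial trifunctional protein, matched no probe by symbol. Cpt1a (which loads long-chain acyl groups onto carnitine at the outer mitochondrial membrane), Crot (its peroxisomal counterpart for medium chains), Fabp1 (the liver-type fatty acid binding protein) and Hadh (the mitochondrial hydroxyacyl-CoA dehydrogenase) were detected on 0 of 12 arrays. The raw signals of the 2 Cpt1a probes ran from 82.8 to 96.6 and from 86.7 to 95.7, and that of Fabp1 from 83.0 to 96.0. The lowest signal counted as detected was between 93.6 and 108, depending on the array. These 4 genes have no fold change here, and their signals do not show that the transcripts are absent. A probe annotated Hadhsc, an older name of Hadh, fell outside the symbol match. It had a log2 fold change of -0.22 ± 0.15 (SE; adjusted p = 0.587). Every one of the 11 member probes that were dropped was detected on 0 arrays, so no member entered or left through its level in 1 group. Of the 47 kept probes, 44 were detected on all 12 arrays and the others on at least 10.

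PPAR alpha is known to bind a direct repeat of the hexamer AGGTCA with 1 base between the copies. The promoter windows of the set, from 250 bases before to 50 after the gene's start in RefSeq on GRCm38.p6, were searched on both strands for the hexamer and for a looser repeat, AGGNCA followed by any base and AGGNCA again, which can overlap it. There were 29 windows for 28 of the 34 genes. The hexamer lay in 5 of the 29 windows (17.2%) and in 16.3% of all 32851 windows. The repeat lay in 1 of the 29, that of Fabp1, and in 0.381% of all windows. The stretches are shown because they hold the letters that the receptor is known to read. Each is 60 bases, 5′ to 3′ on the gene's strand, with the match in capitals (the repeat for Fabp1, the hexamer for the others).
Fabp1, chr6:71199789-71199848, + strand: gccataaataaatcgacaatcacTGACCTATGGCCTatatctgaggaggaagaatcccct
Cpt1a, chr19:3323180-3323239, + strand: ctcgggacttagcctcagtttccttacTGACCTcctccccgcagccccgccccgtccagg
Acadvl, chr11:70015483-70015542, - strand: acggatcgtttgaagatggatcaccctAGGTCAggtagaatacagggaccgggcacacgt
Acadm, chr3:153944834-153944893, - strand: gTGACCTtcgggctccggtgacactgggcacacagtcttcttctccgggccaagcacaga
Echs1, chr7:140116472-140116531, - strand: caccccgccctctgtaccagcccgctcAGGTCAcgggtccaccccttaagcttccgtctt
Relative to the gene's start the Fabp1 repeat runs from -67 to -55. Of the 5 genes, Fabp1 and Cpt1a were not detected. The other 3 had log2 fold changes of 0.16 (Acadvl), 0.15 (Acadm) and 0.07 (Echs1). A match is a string of letters in this window and no measure of binding.

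No fatty acid oxidation or PPAR alpha gene passed the test. Of the 47 member probes 0 were called changed at an adjusted p under 0.05 (limma, adjusted over all 16179 kept probes), where 0.457% of all kept probes were called (0.321% higher and 0.136% lower in colistin mice, a balance that turned the other way without saline mouse 1, with 106 higher and 223 lower). The lowest adjusted p of a member was 0.414. At an unadjusted p under 0.05 there were 3 of 47 member probes, against 10.9% of all kept probes. In an exact permutation test over all ways of dividing 12 mice into 6 and 6 there were also 3, against 10.5%, and 0 after adjustment, as over all kept probes. The smallest p that this permutation test can give is 0.00216. That is too large for a small share of 16179 probes to pass adjustment, so its 0 says little. For 0 of the 47 probes did the groups not overlap, against 1.0% of all kept probes. With each gene read by its kept probe of highest mean signal, 22 of 29 genes had a log2 fold change (colistin minus saline) above 0 and 7 below. Over all 47 member probes 29 lay above 0 and 18 below, so the balance depends in part on the probe read. The median over the 29 genes was 0.07, that over all kept probes was 0.01, and the genes lay between -0.29 and 0.43. Without saline mice 2 and 5 the median was 0.02 and again 0 probes were called.

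The intervals bound how large an undetected change could be only at the brightest probe of each gene and with the main processing. The 95% interval of the log2 fold change lay within a 2-fold change in either direction for 29 of 29 genes, and within a 1.5-fold change for 25 of 29. The share of all kept probes within 1.5-fold was 80.6%. The exceptions were Crat, Acsl1 and Acadl on the higher side and Acadsb on the lower side. The widest upper bound was 1.94-fold higher, for Crat, and the widest lower bound 1.52-fold lower, for Acadsb. Other readings reached further. Crat was at 0.46 ± 0.29 (SE) with the authors' normalized values and at 0.58 ± 0.23 (SE) without saline mouse 1. The upper bound of the dimmer Acox3 probe was 1.81-fold. The offset of 16 added before the log2 step compresses dim genes such as Ppara and Acot2, so their intervals bound only the compressed change. The standard errors ran from 0.08 to 0.25 with a median of 0.13, the same as the median over all kept probes.

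**Figure D1:**
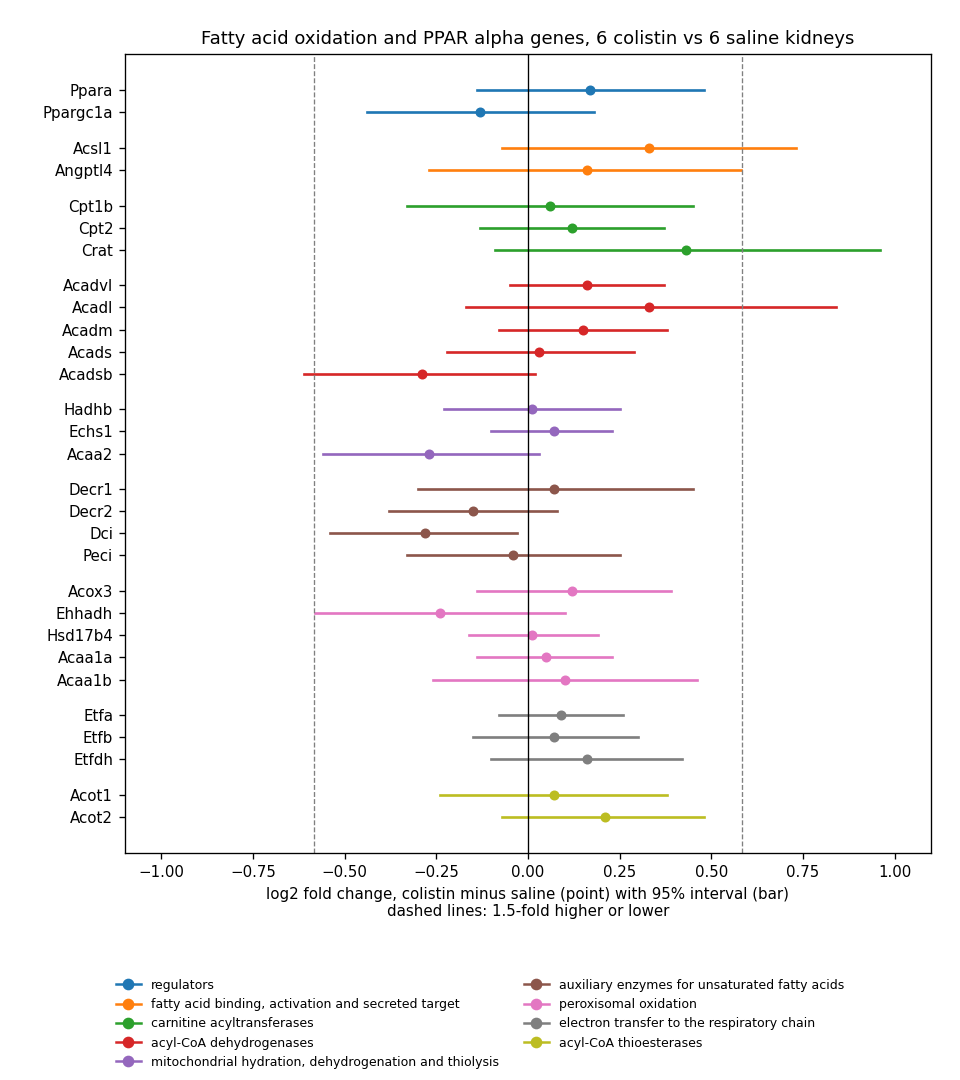
Log2 fold change (x axis, colistin minus saline, points) with the 95% interval (bars) of 29 genes (y axis), coloured by role, 6 mice a group. All intervals except that of Dci include 0, and 25 of 29 lie between the dashed lines at a 1.5-fold change.

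The regulators were measured at the level of their own transcripts. The log2 signal of Ppara was 4.91, 5.48 and 5.89 (lowest, median and highest) in saline mice and 5.49, 5.57 and 5.91 in colistin mice. Saline mouse 2 held the low value, and the colistin mice lay between the middle of the saline mice and just above the highest of them. The log2 fold change of Ppara was 0.17 ± 0.15 (SE; adjusted p = 0.645), and it was 0.01 without saline mice 2 and 5. The Ppara signal lay near background. Its value was 0.06 without background correction and 0.26 with the authors' normalized values. Ppargc1a, which encodes a coactivator of PPAR alpha that also drives mitochondrial biogenesis, was at 8.83, 9.0 and 9.63 in saline mice and 8.78, 8.94 and 9.36 in colistin mice. Saline mouse 2 held the highest value, and the groups overlapped. Its log2 fold change was -0.13 ± 0.15 (SE; adjusted p = 0.723), against -0.03 without saline mouse 2 and 0.05 without saline mice 2 and 5.

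Acsl1 encodes a long-chain acyl-CoA synthetase, which traps fatty acids as acyl-CoA. Its log2 signal was 7.73, 8.27 and 8.83 in saline mice and 8.28, 8.66 and 8.99 in colistin mice. Saline mice 2 and 5 were the lowest, at 7.92 and 7.73, while saline mice 1 and 3 lay among the colistin mice. Colistin minus saline came to 0.33 ± 0.19 (SE; adjusted p = 0.523), and 0.09 without saline mice 2 and 5. Angptl4, a PPAR target that encodes a secreted inhibitor of lipoprotein lipase, was at 9.84, 10.10 and 11.15 in saline mice and 10.20, 10.29 and 10.92 in colistin mice. One mouse of each group stood above the rest, saline mouse 3 at 11.15 and colistin mouse 2 at 10.92. The log2 fold change of Angptl4 was 0.16 ± 0.20 (SE; adjusted p = 0.760). Leaving out saline mouse 3 gave 0.34, leaving out colistin mouse 2 gave 0.05, and leaving out saline mouse 4 or saline mouse 5 gave 0.08.

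Carnitine acyltransferases exchange acyl groups between CoA and carnitine, and 3 of 5 were measured. Crat, which makes acetylcarnitine and so buffers acetyl-CoA, had the largest positive value of the set. Its log2 signal was 7.11, 8.08 and 8.87 in saline mice and 8.04, 8.57 and 8.97 in colistin mice. Saline mouse 2 was the lowest of all mice by far, and saline mouse 1, at 8.87, was second only to colistin mouse 4. The difference in log2 means was 0.43 ± 0.25 (SE; adjusted p = 0.529) and 0.11 without saline mice 2 and 5. A dimmer Crat probe, which 4 saline and 6 colistin arrays detected, was at 0.34 ± 0.15 (SE; adjusted p = 0.441). Cpt2, which returns acyl groups to CoA in the matrix, had a log2 fold change of 0.12. Cpt1b, the muscle form of the outer-membrane enzyme, was at 0.06.

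The acyl-CoA dehydrogenases open each cycle, and each acts on chains of a given length. Acadm (medium chains) had a log2 signal of 13.41, 13.59 and 13.98 in saline mice and 13.62, 13.81 and 13.91 in colistin mice. The colistin values lay inside the saline range, and the log2 fold change was 0.15 ± 0.11 (SE; adjusted p = 0.603). Acadl (long chains) was at 7.36, 8.44 and 8.89 in saline mice and 8.21, 8.57 and 8.67 in colistin mice. At this brighter Acadl probe saline mice 2 and 5, at 7.37 and 7.36, stood apart below every other mouse. The colistin mice overlapped the other saline mice. The log2 fold change there was 0.33 ± 0.24 (SE; adjusted p = 0.598), and it was -0.08 without saline mice 2 and 5. The second Acadl probe did not repeat this order: saline mouse 5, at 7.86, was the highest saline mouse, and saline mouse 2 was at 7.09. Acadsb, which acts on short branched chains from isoleucine breakdown, was at 7.99, 8.48 and 8.82 in saline mice and 7.71, 8.15 and 8.53 in colistin mice. Colistin mouse 5 held the lowest value and colistin mouse 6 lay in the middle of the saline mice. Its log2 fold change was -0.29 ± 0.15 (SE; adjusted p = 0.490), the lowest of the set. Acadvl (very long chains) had a log2 fold change of 0.16 and Acads (short chains) of 0.03.

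**Figure D2:**
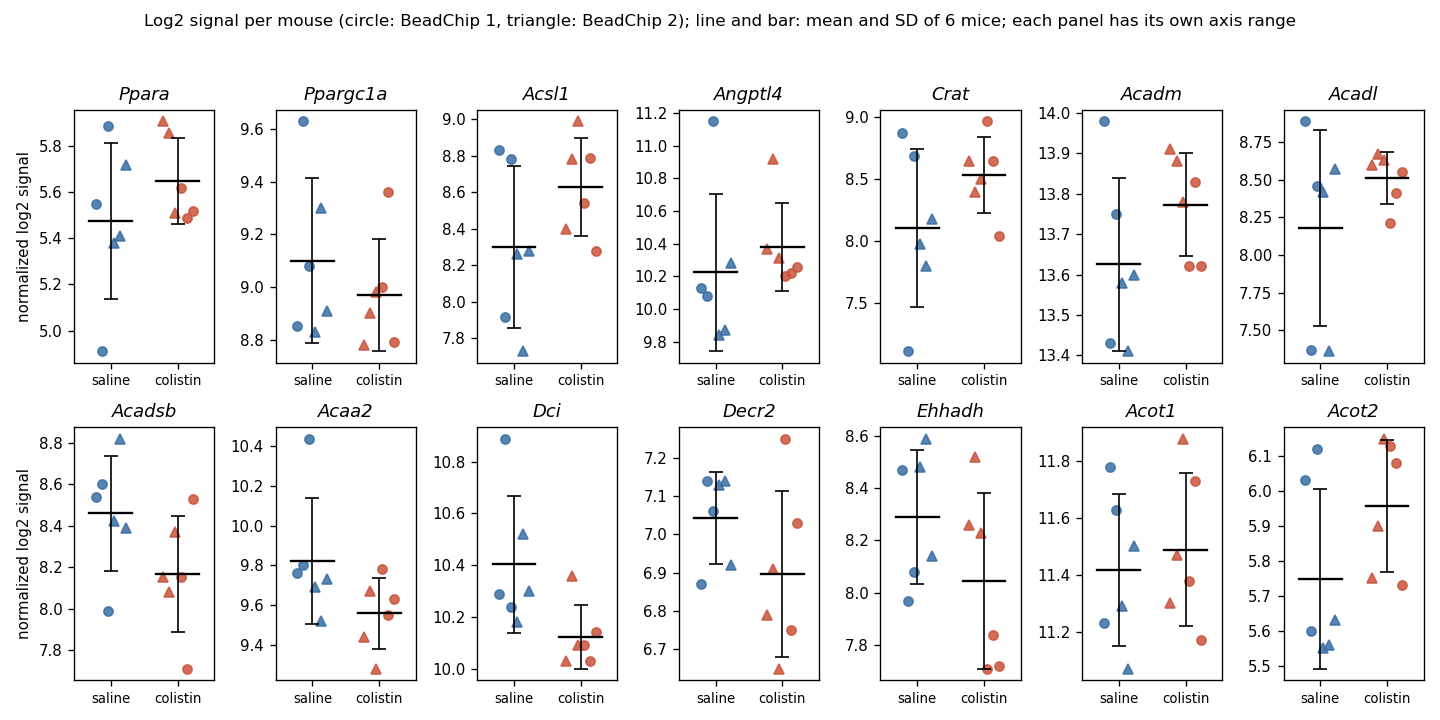
Normalized log2 signal (y axis) of 14 genes in each of the 6 saline and 6 colistin mice, with the mean and SD of each group as lines and bars. Each gene is shown at its brightest kept probe. In every panel the groups overlap, and the low saline points of Crat and Acadl are those of saline mice 2 and 5.

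The later mitochondrial steps were measured by 3 of 5 genes. Acaa2, the thiolase that releases acetyl-CoA, had 4 kept probes. At the brightest of them the log2 signal was 9.52, 9.75 and 10.44 in saline mice and 9.28, 9.59 and 9.78 in colistin mice. Saline mouse 3 held the highest value, and all 6 colistin mice lay below the saline mean. The log2 fold change was -0.27 ± 0.14 (SE; adjusted p = 0.503). It was -0.14 without saline mouse 3 and -0.34 without saline mice 2 and 5. The other Acaa2 probes had log2 fold changes of -0.28, -0.30 and -0.24, with adjusted p between 0.455 and 0.478. Saline mouse 3 was the highest at 3 of the 4 probes and saline mouse 2 at the fourth. Echs1, the enoyl-CoA hydratase, had a log2 fold change of 0.07 and Hadhb, the beta subunit of the trifunctional protein, of 0.01.

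Unsaturated fatty acids need auxiliary enzymes that move or reduce their double bonds, and 4 of 4 were measured. Dci (now named Eci1), a mitochondrial enoyl-CoA isomerase, had the lowest p of the brightest probes. Its log2 signal was 10.18, 10.29 and 10.89 in saline mice and 10.03, 10.09 and 10.36 in colistin mice. Of the colistin mice, 5 lay below every saline mouse, and colistin mouse 2 lay inside the saline range. Colistin minus saline came to -0.28 ± 0.12 (SE; adjusted p = 0.414 in limma), and to -0.13 without saline mice 2 and 5. Decr2, a peroxisomal dienoyl-CoA reductase, was at 6.87, 7.10 and 7.14 in saline mice and 6.65, 6.85 and 7.25 in colistin mice. Colistin mouse 4 was the highest of all mice, and the log2 fold change was -0.15 ± 0.11 (SE; adjusted p = 0.605). Its second probe was also at -0.15. Decr1, the mitochondrial reductase, was at 0.07 and Peci (now Eci2), the peroxisomal isomerase, at -0.04.

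The peroxisomal pathway was measured by 5 of 5 genes. Ehhadh, the bifunctional enzyme of straight chains and a classical PPAR alpha target, had a log2 signal of 7.97, 8.31 and 8.59 in saline mice and 7.71, 8.04 and 8.52 in colistin mice. The 3 colistin mice on BeadChip 1 were the lowest of all 12 mice, and the 3 on BeadChip 2 lay inside the saline range. Between the groups the log2 fold change was -0.24 ± 0.16 (SE; adjusted p = 0.569). It was -0.41 on BeadChip 1 and -0.07 on BeadChip 2. Acox3, an acyl-CoA oxidase of branched chains, was at 0.12, Hsd17b4, the second bifunctional enzyme, at 0.01, and the thiolases Acaa1a and Acaa1b at 0.05 and 0.10. Acaa1a and Acaa1b are closely related in sequence, as are Acot1 and Acot2, and whether their probes also bind the other's transcript was not tested.

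Electrons from the dehydrogenases pass to the respiratory chain through the electron transfer flavoprotein and its oxidoreductase. Etfa and Etfb, its subunits, had log2 fold changes of 0.09 and 0.07, and Etfdh was at 0.16. Acyl-CoA thioesterases release free fatty acids from CoA. Acot1, the cytosolic form, had a log2 signal of 11.07, 11.39 and 11.78 in saline mice and 11.17, 11.42 and 11.88 in colistin mice. The medians differed by far less than the range of either group, and the log2 fold change was 0.07 ± 0.14 (SE; adjusted p = 0.852). Acot2, the mitochondrial form, was at 5.55, 5.61 and 6.12 in saline mice and 5.73, 5.99 and 6.15 in colistin mice. Saline mice 1 and 3 lay among the highest colistin mice, and the log2 fold change was 0.21 ± 0.13 (SE; adjusted p = 0.548).

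Several probes of the same gene give a check on how far a small value can be trusted. Of the 29 genes, 14 had more than 1 kept probe. The log2 fold changes of a gene's probes spanned between 0.00 and 0.29, with a median span of 0.15. In 8 genes all probes had the same sign (Crat, Acadl, Acads, Echs1, Acox3 and Acot1 above 0, Acaa2 and Decr2 below), and in 6 the signs differed (Cpt1b, Cpt2, Acadvl, Etfa, Etfb and Acot2). The second Acadl probe was at 0.04, against 0.33 at the brighter one, and the second Acot2 probe at -0.08, against 0.21. The median size of the fold change over the 29 genes, without regard to sign, was 0.13.

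**Figure D3:**
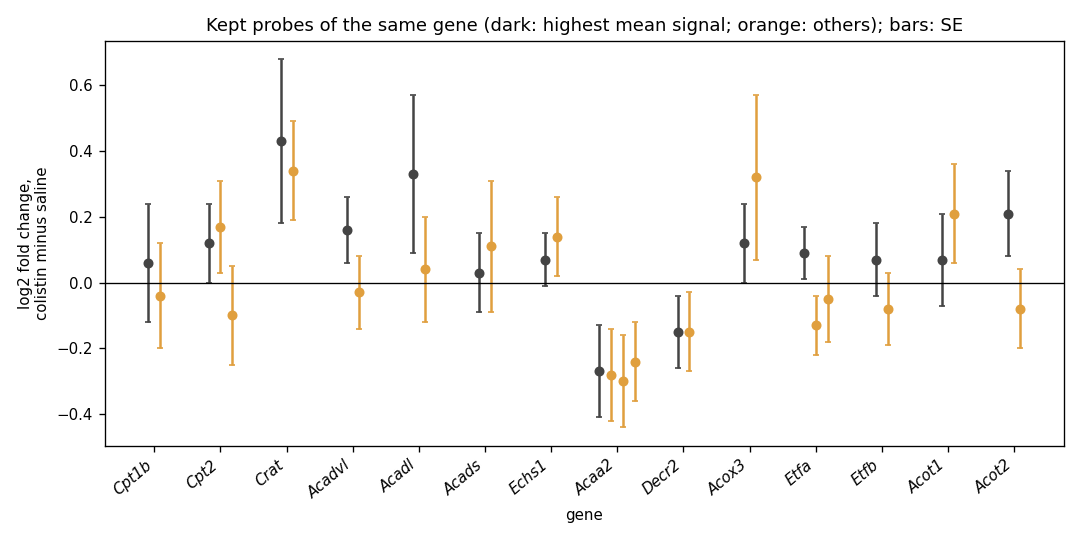
Log2 fold change (y axis) with SE (bars) of every kept probe of the 14 genes (x axis) that had more than 1. The 4 Acaa2 probes lie together between -0.30 and -0.24, whereas the probes of 6 genes lie on both sides of 0.

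The SD of the log2 signal was larger among saline than among colistin mice for 21 of 29 genes, and for 78.8% of all kept probes. The median SD of the genes was 0.27 in saline mice and 0.20 in colistin mice. Saline mice 2 and 5 each held the lowest value of all 12 mice for 8 of the 29 genes (27.6%), against 28.3% and 12.0% of all kept probes. Averaged over the 29 genes, saline mouse 2 stood -0.15 and saline mouse 3 stood 0.17 from the saline mean, the extremes on the log2 scale, and the colistin mice between -0.03 and 0.12, all inside the saline range. Without saline mice 2 and 5 the log2 fold changes of further genes also moved: Acadm from 0.15 to 0.04, Acot2 from 0.21 to 0.13, Acadsb from -0.29 to -0.17 and Decr2 from -0.15 to -0.10. Without saline mouse 2 alone Crat was at 0.23, Acadl at 0.17, Ppara at 0.06 and Dci at -0.18, and without saline mouse 5 alone Acadl was at 0.17, Acsl1 at 0.22 and Acadm at 0.10. Leaving out saline mouse 1 or saline mouse 3 instead made the rises of Crat, Acadl and Acsl1 larger. Crat was then at 0.58 and 0.55, Acadl at 0.47 and 0.39, and Acsl1 at 0.44 and 0.43.

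**Figure D4:**
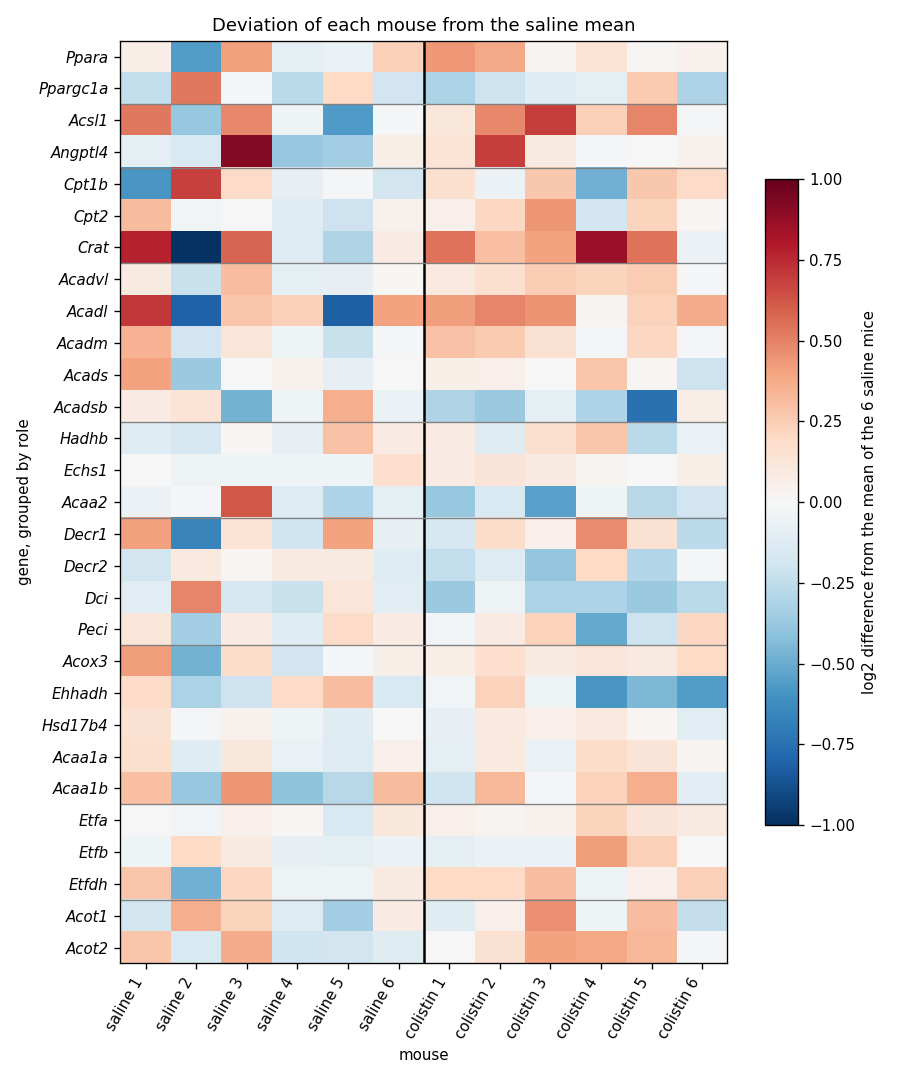
Log2 difference from the saline mean (colour) for 29 genes (rows, grouped by role) in 12 mice (columns, saline to the left of the line). Each gene is shown at its brightest kept probe. Strong colours occur in both groups, such as Crat in saline mouse 2 (-0.99) and colistin mouse 4 (0.86), Acadl in saline mice 2 and 5 (-0.81 and -0.82), Angptl4 in saline mouse 3 (0.92) and Acadsb in colistin mouse 5 (-0.75).

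Lists of cell type markers were read on the same arrays. The mean log2 level of the 16 proximal tubule markers was between 10.55 and 11.12 in saline mice and between 10.93 and 11.13 in colistin mice. Their median log2 fold change was 0.06, with 0 of 16 called. The lowest level was again that of saline mouse 2, at -0.39 from the saline mean, so the proximal tubule markers and the fatty acid oxidation genes were both low in that mouse. Their part in its values was not tested. Markers of endothelium (9 of 10 measured, levels 6.42 to 7.54 in saline and 6.59 to 6.90 in colistin mice), fibroblasts (7 of 8, 6.15 to 7.04 and 5.71 to 6.02) and macrophages (9 of 10, 6.39 to 6.93 and 6.04 to 6.67) had medians of -0.52, -0.71 and -0.41, with 0 called. An unadjusted p under 0.05 in limma was seen for 9 of 9, 5 of 7 and 3 of 9 of these markers. It was seen for 0 of 16 proximal tubule markers and 10.9% of all kept probes. It was also seen for 3 of 9 distal and collecting tubule markers and 1 of 4 erythrocyte markers. The distal ones were Pvalb and Slc4a1 (-0.53), both lower, and Umod (0.28), higher. Slc4a1 is also the erythrocyte marker concerned. Of 10 distal and collecting tubule markers 9 were measured (levels 9.30 to 10 in saline and 9.22 to 9.63 in colistin mice), with a median of 0.01. Among them 1 was called, the only one of the cell type markers read here: Pvalb, which encodes parvalbumin of the early distal convoluted tubule, was at 9.83, 10.42 and 11.25 in saline mice and 9.16, 9.38 and 9.53 in colistin mice. Its groups did not overlap, and its log2 fold change was -1.13 ± 0.19 (SE; adjusted p = 0.0136). The 4 of 4 erythrocyte markers (levels 9.78 to 11.64 and 9.82 to 10.95) had a median of -0.23, with 0 called. Of 10 adipocyte markers 3 had a kept probe (levels 4.72 to 8.54 in saline and 4.63 to 6.60 in colistin mice). The defining genes Adipoq, Plin1, Lep and Fabp4 had none. The top of that range was saline mouse 1. Of 7 skeletal muscle markers 1 was kept, and Acta1 and Ckm were not.

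**Figure D5:**
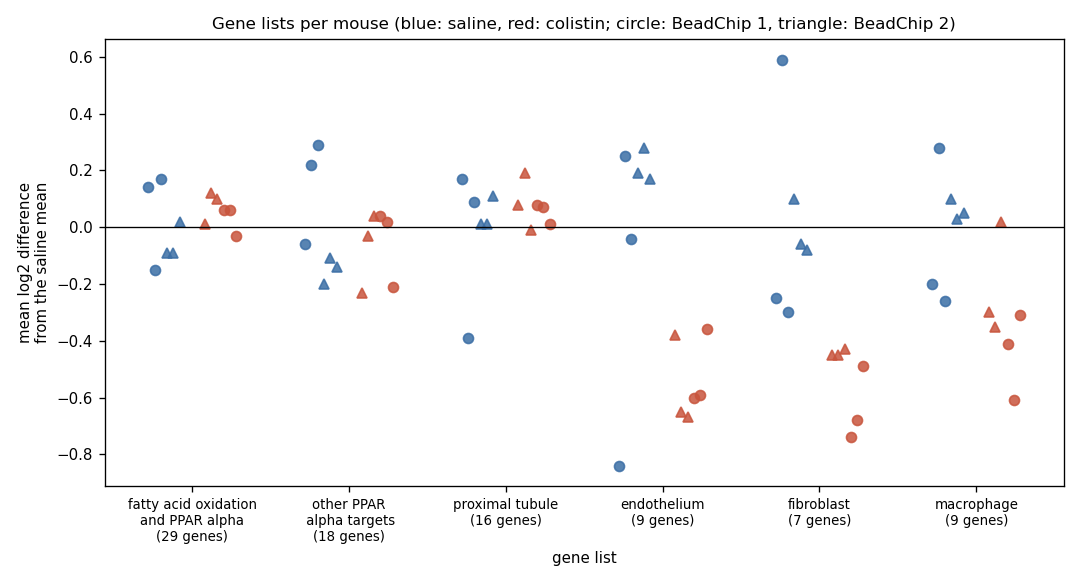
Mean log2 difference from the saline mean (y axis) over the genes of each list (x axis), 1 point per mouse. The fatty acid oxidation and proximal tubule lists overlap between groups, with saline mouse 2 lowest in both. All colistin points of the endothelium and fibroblast lists lie below 0. In the endothelium list the groups also overlap, with saline mouse 1 (-0.84) below every colistin mouse.

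The BeadChips were compared as batches. The median log2 fold change of the 29 genes was 0.03 on BeadChip 1 and 0.08 on BeadChip 2, and 20 of 29 genes had the same sign on both. Over all kept probes 63.4% did. The interaction of treatment and BeadChip was called for 0 of 47 member probes, and in limma 0 of 47 had an unadjusted p under 0.05. Of all kept probes 0.00% were called in the interaction and 2.55% had an unadjusted p under 0.05. Angptl4 had the smallest interaction p of the set (0.0621 in limma, adjusted p = 1.0), at -0.22 on BeadChip 1 and 0.53 on BeadChip 2.

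Other genes of the pathway were read from 3 further lists. Of 25 other PPAR alpha targets 18 were measured and 0 were called; 9 had a log2 fold change above 0 and 9 below, with a median of -0.02. Retsat, which saturates retinol, was at -0.30 ± 0.13 (SE; adjusted p = 0.407). Among further targets with an unadjusted p under 0.05 in limma, picked out after their values were seen, were Ech1 at -0.18 ± 0.08 (SE) and Plin2 (Adfp on the array), which coats lipid droplets, at 0.30 ± 0.14 (SE), with adjusted p of 0.414 and 0.451. Plin2 was at 0.14 without saline mice 2 and 5. Ech1 encodes an auxiliary enzyme of unsaturated fatty acids and its groups did not overlap: saline mice lay between 12.85 and 13.08 and colistin mice between 12.64 and 12.82. Groups did not overlap at 1.0% of all kept probes.

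Of 21 other regulators of the pathway 17 were measured, with a median of 0.00 and 0 called. Ncor1, a corepressor, was at 0.24 and Ppard, the gene of the related receptor PPAR delta, at 0.52 ± 0.34 (SE; adjusted p = 0.565). Ppard was lowest in saline mouse 2, at 4.73, and its log2 fold change was -0.03 without saline mice 2 and 5. Of 13 genes of the opposite pathway, fatty acid synthesis, 11 were measured, with a median of -0.01 and 0 called. Scd2, a fatty acid desaturase, was at 0.45 ± 0.15 (SE; adjusted p = 0.281), with 6 of 6 colistin mice above the saline mean, and 0.28 without saline mice 2 and 5. Its signal lay near background, detected on 4 saline and 6 colistin arrays. The Scd2 value was 0.15 without background correction and 0.62 with the authors' normalized values. Mlxipl, which encodes the carbohydrate-responsive factor ChREBP, was at 0.45 ± 0.21 (SE; adjusted p = 0.460), and 0.14 without saline mice 2 and 5.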

How the data were processed

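The members and gene lists were chosen with earlier results of these data known. The authors deposited raw intensities (the mean bead signal per probe) and, beside each, a detection p-value against negative controls, per the file headers; no background had been subtracted (lowest value 74.7). The submitters' processing notes name GenomeStudio and Partek; what each did, and how it was set, is not given in the sources used here. Background correction from the detection p-values and quantile normalization used limma 3.58.1 (function neqc, R 4.3.3), adding 16 ahead of the log2 step, which compresses the fold changes of dim probes. The authors' normalized intensities, deposited on a linear scale (column medians 3.39 to 3.42, in the same order within arrays as the raw signals), served as an alternative, with a floor of 16; how they were normalized is not stated. The deposited gene-level tables were not used.

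Groups were compared with lmFit and eBayes (group as the only term, two-sided, Benjamini-Hochberg over all kept probes), and fold changes are differences of log2 means with limma's SE and 95% intervals. The number of arrays limits the precision. Each array was a separate mouse, per the series design. Same-numbered mice lay on different BeadChips and did not deviate together (correlations -0.26 to 0.12). A difference between the BeadChips would lower these correlations, so they cannot show whether the numbers were pairs. The numbers were not taken as pairs. The fit was tested on simulated data. Given in full were the 5 genes with the largest and the 5 with the smallest log2 fold change, 8 genes chosen by role (Ppara, Ppargc1a, Cpt1a, Acadm, Ehhadh, Angptl4, Fabp1, Acot1), any called member and any whose probes differed by over 0.5; for the other lists, the 2 genes with the smallest p. One gene that this rule names is not reported here. Symbols were updated through RefSeq (GRCm38.p6, names and promoters only).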

Additional observations from a re-analysis of the deposited data

Results flagged for a closer look

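In 5 of 74 sets of 6 mice (37 genes in 2 groups), 1 mouse stood apart from the other 5 by more than Dixon's 95% limit; chance gives about 1 in 20. Angptl4 was at 11.15 in saline mouse 3 (the others 9.84 to 10.28) and at 10.92 in colistin mouse 2 (10.20 to 10.37). Acaa2 was at 10.44 in saline mouse 3 (9.52 to 9.80), Echs1 at 11.14 in saline mouse 6 (10.92 to 10.96) and Dci at 10.36 in colistin mouse 2 (10.03 to 10.14).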

How the results depend on the processing

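Of 27 alternatives, those that only changed how the probes of a gene were read gave a median and made no calls. In all others 0 member probes were called, and 0 in the interaction with BeadChip wherever it was fitted. The median over the 29 genes stayed between 0.00 and 0.10, and between 0.05 and 0.11 with 1 mouse left out. The count over all kept probes, 74, was 25 without background correction, 45 with an offset of 50 and 37 with the authors' normalized values. It was 33 with no detection filter, 27 with probes detected on all arrays, 0 on BeadChip 1, 298 on BeadChip 2 and 471 with array weights. The count was also 0 in the exact permutation test, whose smallest possible p of 0.00216 made calls after adjustment unlikely. It was between 38 and 329 with 1 mouse left out: 329 without saline mouse 1, 38 and 47 without saline mice 4 and 6, and 45, 40, 46 and 48 without colistin mice 2, 3, 5 and 6. The share of calls that were higher in colistin mice was 70.3% (52 higher, 22 lower) and 62.3% with median scaling, but the balance turned on BeadChip 2 (103 and 195), with array weights (199 and 272) and without saline mouse 1 (106 and 223). The replicate block, by a number that was not taken to pair the mice, gave 36 and 0 member calls. Mouse 1 of each group was the only positive same-number correlation (0.12).

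Of 29 genes, 13 kept their sign throughout and 16 changed it, none of them called. Median scaling turned Acadm (-0.03), Hadhb (-0.01), Hsd17b4 (-0.08), Acaa1a (-0.05), Etfa (-0.07) and Etfb (-0.11). BeadChip 1 alone turned Angptl4 (-0.22), Cpt1b (-0.10), Cpt2 (-0.08), Acadm (-0.03), Hsd17b4 (-0.05) and Acot1 (-0.12), and BeadChip 2 alone Hadhb (-0.06), Decr1 (-0.02) and Peci (0.04). Array weights turned Ppargc1a (0.00), Acads (-0.01), Hadhb (-0.04) and Acaa1b (-0.01). Without saline mice 2 and 5, Ppargc1a (0.05), Acadl (-0.08), Acads (-0.08), Hsd17b4 (-0.02), Acaa1a (-0.02) and Acaa1b (-0.06) turned. So did Ppard (-0.03), which is not one of the 29 genes. With 1 mouse left out the range crossed 0 for Cpt1b (-0.06 to 0.19), Acads (-0.04 to 0.11), Hadhb (-0.04 to 0.07), Decr1 (-0.06 to 0.15), Peci (-0.11 to 0.06), Hsd17b4 (-0.01 to 0.04) and Acot1 (-0.01 to 0.14). The cause was not tested. A signal near background limits Ppara, Acot2, Scd2 and the dim probes of Crat and Acox3, whose fold changes the offset compresses.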
